A study of Mus musculus with 12 samples.

Results

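The genes described here are 10 regulators of the multiciliated cell fate, taken by their symbols from the rows of the count files: Gmnc, Mcidas, Myb, Trp73, Foxj1, Rfx2, Rfx3, Ccno, Deup1 and Cdc20b. All 10 were found among 26264 listed genes, and all 10 were among the 16465 genes that had enough reads to be tested. They were measured by bulk RNA sequencing in mouse endometrial epithelial organoids, which are grown in a gel from cells of the uterine lining. The series concerns the role of Esr1, the gene of estrogen receptor alpha, in uterine epithelial identity.

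The 12 libraries formed 4 groups of 3: Esr1 knockout (KO) organoids with estrogen (treated KO), KO organoids without estrogen (untreated KO), wild type (WT) organoids with estrogen (treated WT) and WT organoids without it (untreated WT). All were grown from dissociated uterine epithelium and were at passage 3. The labels do not give the estrogen dose or duration, the allele or Cre line behind the knockout, the age of the donor mouse of each library, or whether a group's 3 libraries stem from different mice or wells. A p-value here thus speaks only of the spread among libraries, which may be technical. A submitters' treatment note states that organoids of neither genotype responded to the hormone.

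Multiciliated cells carry many motile cilia on their surface, each built on a centriole, and are known from the oviduct, the airway and the lining of the brain ventricles. A cell commits to this fate when the geminin-family proteins encoded by Gmnc and Mcidas join E2F4 or E2F5 and switch on genes for mass production of centrioles. Myb, Trp73, Foxj1, Rfx2 and Rfx3 encode transcription factors that act with or after them, and Ccno, Deup1 and Cdc20b serve the amplification of centrioles itself.

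Library totals ran from 75654191 to 108665407 counted reads. Esr1 itself averaged 19.7 ± 0.510 CPM (counts per 1e+06 counted reads, TMM-normalised; SD, n = 3 as for all group values) in treated KO and 318 ± 33.5 CPM in treated WT, and 16.4 ± 0.402 CPM in KO without estrogen against 308 ± 50.2 CPM in untreated WT. Epcam, an epithelial surface gene, stood at 749 ± 73.2 CPM in treated KO, 653 ± 66.9 CPM in untreated KO, 1155 ± 74.3 CPM in treated WT and 1067 ± 64.8 CPM in untreated WT. Hoxa10 and Hoxa11, which mark uterine identity along the reproductive tract, had only 8 and 10 reads over all 12 libraries. Of 10 uterine markers, 8 were tested, Foxa2 was higher in KO under both treatments and Esr1, Epcam, Pgr and Krt18 were lower. Of 6 oviduct markers, the 3 tested (Pax8, Pax2 and Ovgp1) were lower in KO under both treatments and Wt1, Hoxa9 and Sostdc1 had 7, 6 and 34 reads in all. The 3 tested markers were expressed in the WT uterine organoids too, and so were not particular to the oviduct here. In treated and untreated WT, Pax8 averaged 228 ± 15.0 and 236 ± 12.0 CPM, Pax2 100 ± 24.4 and 93.0 ± 17.1 CPM, and Ovgp1 11.4 ± 4.41 and 11.1 ± 2.10 CPM.

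All 10 regulators were higher in KO than in WT, with estrogen and without it, by edgeR's quasi-likelihood test with Benjamini-Hochberg adjustment over all tested genes. For each of the 10, all 6 KO libraries lay above all 6 WT libraries. Genotype differences were widespread: 36.7% of tested genes were called higher in KO with estrogen and 37.7% without it, 34.1% were higher and 30.8% lower in both, and for 34% all 6 KO libraries lay above all 6 WT libraries. The regulators had a median log2 fold change of 9.47 with estrogen and 9.71 without it, where genes without WT reads enter at their lower limit, beside 0.02 and 0.04 over all tested genes. In bulk RNA, fewer cells of a type and less RNA per cell cannot be told apart, so a level here is that of the whole culture.

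**Figure D1:**
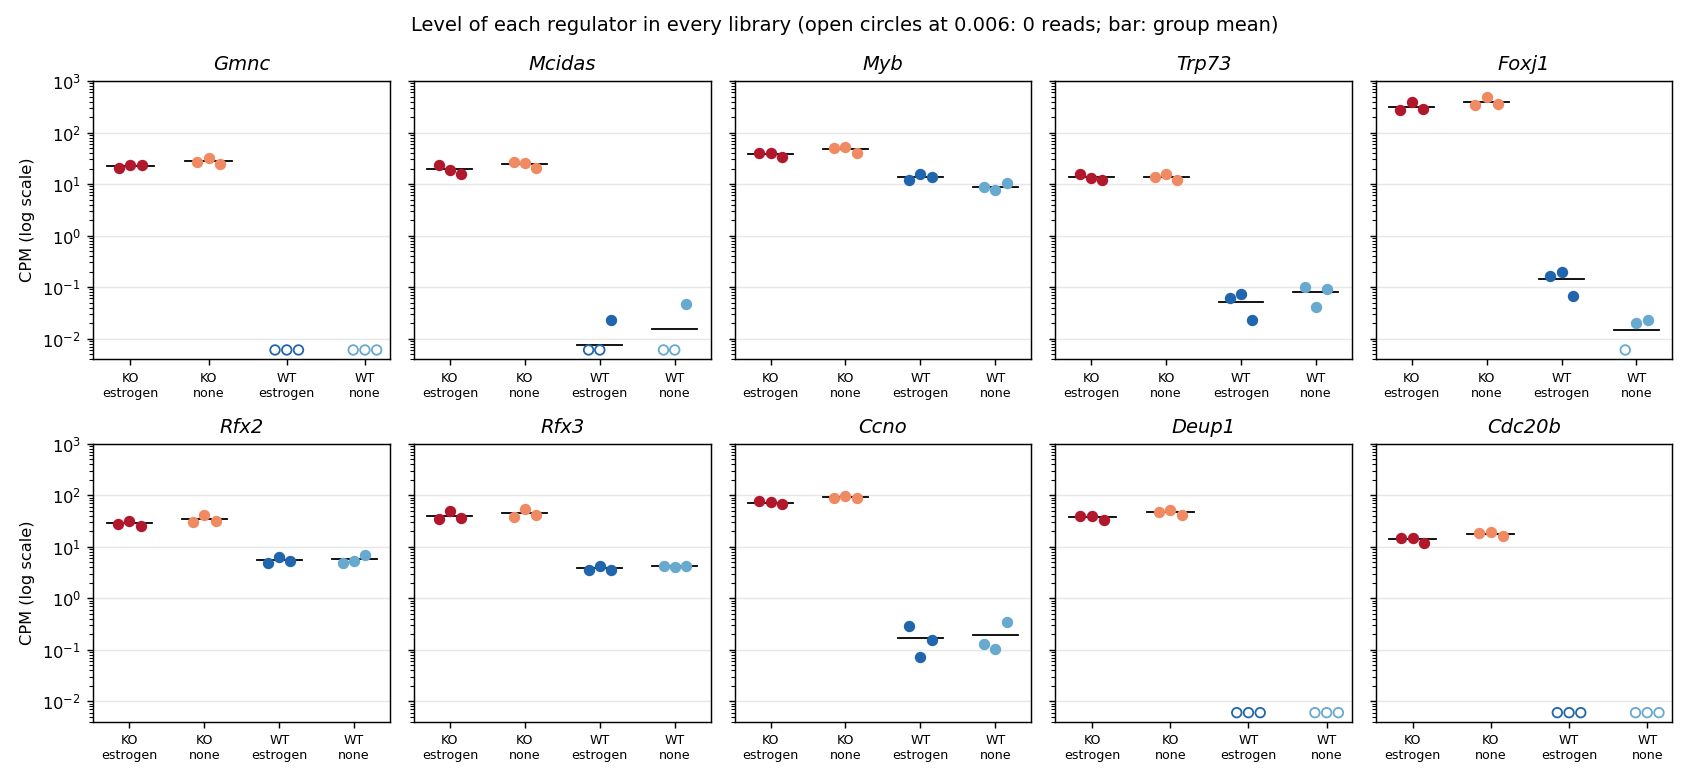
CPM of each regulator (log axis) in every library by group, with the bar at the group mean and open circles for libraries with 0 reads. The KO libraries lie above every WT library in all 10 panels, from 11.6 CPM (Cdc20b, treated KO) to 496 CPM (Foxj1, untreated KO), while Gmnc, Deup1 and Cdc20b have 0 reads throughout WT and Myb, Rfx2 and Rfx3 are at 3.56 CPM or more in every WT library.

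At the top of the cascade, Gmnc (encoding GEMC1, needed to start the program) and Mcidas (encoding multicilin, which follows it) were close to silent in WT and well expressed in KO. Gmnc stood at 20.7, 23.0 and 23.2 CPM in the treated KO libraries and at 26.2, 32.4 and 24.7 CPM in the untreated KO libraries, against 0 reads in each of the 6 WT libraries. With a floor of 3 reads over a WT group, Gmnc was at least 1996-fold higher in KO with estrogen and at least 2444-fold higher without it (edgeR adjusted p = 4.34e-08 and 3.23e-08). Mcidas stood at 23.1, 19.0 and 15.5 CPM in treated KO and at 26.8, 25.5 and 20.4 CPM in untreated KO. Its WT reads were 2 with estrogen and 4 without, each time in replicate 3 alone. The ratio of summed Mcidas levels, KO over WT, was 2596 with estrogen (exact 95% counting interval 718 to 21444) and 1594 without it (622 to 5851; edgeR adjusted p = 4.06e-08 and 3.01e-08). The intervals are wide because so few WT reads stand below the line. They concern counting error only, and they are still too narrow because each mate of a pair was counted singly.

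The genes of the proteins that GEMC1 and multicilin work with differed in other directions. E2f4, which encodes their main DNA-binding partner, averaged 41.3 ± 3.49 CPM in treated KO and 86.5 ± 3.93 CPM in treated WT, and 41.8 ± 2.58 CPM in KO without estrogen against 90.6 ± 4.32 CPM in untreated WT. Its log2 fold change was -1.07 ± 0.08 (SE) with estrogen and -1.12 ± 0.08 without it (edgeR adjusted p = 3.80e-07 and 2.36e-07), and E2f5, the other partner, was lower by a similar amount (-0.91 ± 0.13 and -1.05 ± 0.13). Tfdp1, the dimerisation partner of E2F factors, was also lower (-0.44 ± 0.10 and -0.43 ± 0.10). Gmnn, whose product geminin binds multicilin and restrains licensing of DNA replication, was higher instead, at 42.4 ± 10.1 CPM in treated KO against 9.65 ± 1.60 CPM in treated WT and at 45.6 ± 11.2 CPM in KO without estrogen against 9.21 ± 1.34 CPM in untreated WT (log2 fold change 2.14 ± 0.23 with estrogen and 2.31 ± 0.23 without it; edgeR adjusted p = 9.43e-06 and 4.95e-06). Over these geminin and E2F partners, 1 of 6 was higher and 3 lower in both treatments, with Cdt1 and Tfdp2 not called in both. Cell cycle genes differed alongside Gmnn: 6 of 10 were higher in both treatments (among them Ccnb1, Cdk1, Top2a and Plk1) and Mcm2 was lower. The summed CPM of those 10 genes ran from 549 to 735 in treated KO against 230 to 305 in treated WT, and from 539 to 785 in untreated KO against 246 to 307 in untreated WT, with no gene of the list at 0 in a genotype; their part in the level of Gmnn was not tested.

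Trp73 encodes p73, a p53-family factor that promotes Foxj1 and other genes of the program. It stood at 15.7, 12.9 and 11.9 CPM in treated KO and at 13.6, 15.8 and 12.2 CPM in untreated KO. In WT it had 14 reads over the 3 treated libraries and 20 over the 3 untreated ones, with every library between 2 and 8 reads. Its log2 fold change was 7.98 ± 0.33 with estrogen and 7.48 ± 0.32 without (edgeR adjusted p = 8.86e-09 and 8.50e-09), so that the groups were far apart although Trp73 was the lowest of the 10 regulators in KO once length is taken into account. DESeq2 gave a larger SE, 0.42 with estrogen and 0.37 without it.

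Myb, a transcription factor of dividing progenitors that is also switched on early in cells entering this fate, was the regulator with the smallest difference. It stood at 40.5, 39.7 and 33.0 CPM in treated KO against 12.2, 15.8 and 13.5 CPM in treated WT, and at 50.4, 53.5 and 40.3 CPM in KO without estrogen against 8.59, 7.50 and 10.4 CPM in untreated WT. The genotypes did not overlap, and the log2 fold change was 1.45 ± 0.15 with estrogen and 2.44 ± 0.16 without it (edgeR adjusted p = 7.76e-06 and 1.60e-07). Since blood cells also express Myb, immune markers were read beside it: Ptprc, the pan-leukocyte gene, had 4 reads over the 6 KO libraries and 3204 over the 6 WT libraries, and Csf1r, of macrophages, was called lower in KO too. Kit, Itgam and Lyz2 were called higher in KO, while Cd3e and Cd52 had 16 and 61 reads over all 12 libraries. Summed over all 8 immune genes, the level was 16.8 to 25.0 CPM in treated KO against 28.2 to 53.8 CPM in treated WT, and 19.3 to 21.7 CPM in KO without estrogen against 26.7 to 45.3 CPM in untreated WT. These sums weigh unlike genes. Most of the KO sum was Kit (17.7 ± 4.10 CPM treated and 15.8 ± 0.968 CPM untreated). Most of the WT sum was Csf1r (36.9 ± 15.4 CPM treated and 31.3 ± 10.1 CPM untreated).

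Foxj1, the forkhead factor that drives the genes of motile cilia, was the most abundant regulator in KO per exon length and, without estrogen, had the largest fold change of those with WT reads. It stood at 279, 385 and 283 CPM in treated KO and at 337, 496 and 359 CPM in untreated KO. In WT it had 16, 16 and 6 reads in the treated libraries and 0, 2 and 2 reads in the untreated ones. Each KO library thus held Foxj1 at 279 CPM or more and each WT library at 0.194 CPM or less. The log2 fold change was 11.11 ± 0.34 with estrogen and 14.56 ± 0.42 without it (edgeR adjusted p = 2.25e-09 and 1.31e-09). As ratios of summed levels, these were 2232 with estrogen (exact 95% counting interval 1626 to 3154) and 26245 without it (10250 to 96326), and the size of the second rests on 4 WT reads. The SE of 0.42 without estrogen may be too small at so few reads. DESeq2 gave an SE of 0.76 there and of 0.33 with estrogen.

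Rfx2 and Rfx3 encode RFX factors, which bind the X-box motif in promoters of cilium genes and serve primary cilia as well as motile ones. Both had a clear level in WT. Rfx2 stood at 27.4, 32.1 and 25.4 CPM in treated KO against 4.91, 6.20 and 5.35 CPM in treated WT, and at 30.5, 40.5 and 31.4 CPM in KO without estrogen against 4.88, 5.25 and 6.89 CPM in untreated WT. Rfx3 stood at 34.7, 49.2 and 36.04 CPM in treated KO against 3.56, 4.18 and 3.61 CPM in treated WT, and at 37.2, 54.4 and 41.8 CPM in KO without estrogen against 4.20, 4.10 and 4.30 CPM in untreated WT. No KO library overlapped a WT library for either gene. The log2 fold change of Rfx2 was 2.37 ± 0.17 with estrogen and 2.59 ± 0.17 without it (edgeR adjusted p = 3.53e-07 and 1.63e-07), and that of Rfx3 was 3.40 ± 0.17 under both treatments (edgeR adjusted p = 3.25e-08 and 2.78e-08).

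**Figure D2:**
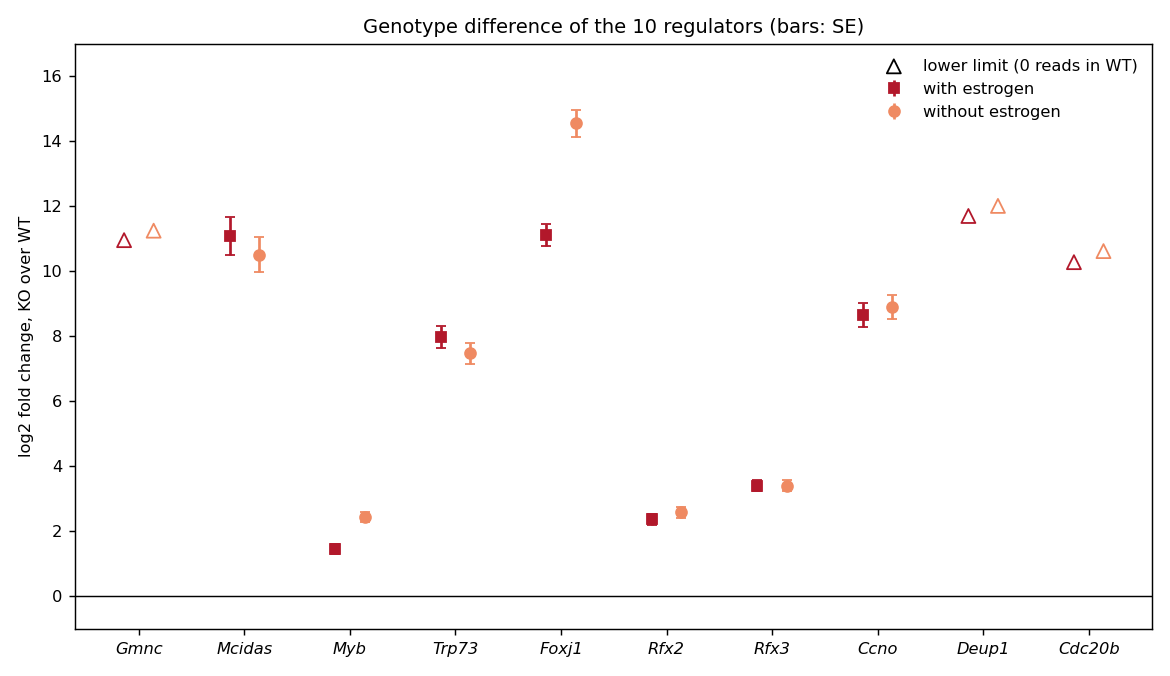
Log2 fold change, KO over WT, of each regulator with estrogen (squares) and without it (circles), with SE bars, and open triangles for lower limits where WT had 0 reads. Myb, Rfx2 and Rfx3 lie between 1.45 and 3.40, and the other regulators at 7.48 or more. The SE bars of Mcidas, Trp73 and Foxj1, which had few WT reads, can be too short.

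Because RFX factors are themselves among the regulators that were higher, the promoters of the regulators were searched for the letters RFX proteins recognise. RefSeq promoter windows of build GRCm38.p6, 250 bases upstream of a start site, were at hand for 9 of the 10 genes in 12 windows, and the motif letters were chosen with these sequences already seen. The X-box core GTTGCC, searched on both strands, stood in 4 of the 12 windows, those of Ccno, Deup1, Mcidas and Rfx2, against 10.4% of 32851 windows of all genes. The full X-box, whose letters also allow variants of that core, was found in Ccno alone, where it contains the core, against 0.566% of all windows. Of other letters searched on both strands, the MYB site CAACTG stood in a window of Deup1 and a window of Gmnc (11.1% of all windows), and neither the E2F site TTTNGCGC (1.13%) nor the forkhead site TGTTTAC (3.17%) stood in a window of the 10 genes. A match is a description of the letters and shows no binding. The Ccno window (chr13:112987552-112987801, plus strand) is shown for its full X-box, in capitals at positions -219 to -206 from the start, and the Rfx2 window (chr17:56831009-56831258, minus strand) for a core in the gene of an RFX factor, in capitals at -116 to -111. For Mcidas (chr13:112993661-112993690, plus strand; core at -195 to -190) and Deup1 (chr9:15627908-15627937, minus strand; core at -79 to -74, on the opposite strand) only the 30 bases around the core are given.
Ccno: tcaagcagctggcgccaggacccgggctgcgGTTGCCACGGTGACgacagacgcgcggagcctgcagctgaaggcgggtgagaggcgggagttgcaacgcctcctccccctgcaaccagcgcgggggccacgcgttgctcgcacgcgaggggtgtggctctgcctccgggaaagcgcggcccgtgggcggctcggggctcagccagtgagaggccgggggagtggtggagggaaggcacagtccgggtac
Rfx2: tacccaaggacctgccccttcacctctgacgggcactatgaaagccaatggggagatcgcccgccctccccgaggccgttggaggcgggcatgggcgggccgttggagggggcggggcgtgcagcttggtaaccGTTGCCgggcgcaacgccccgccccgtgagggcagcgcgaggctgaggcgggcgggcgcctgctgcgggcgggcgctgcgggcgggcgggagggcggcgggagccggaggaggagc
Mcidas: gggggaagccagGTTGCCaggttggttaac
Deup1: ccgcgtctccatGGCAACccactgggaacc

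The 3 genes of centriole amplification were higher in KO, a pair of them from 0 WT reads. Ccno, an atypical cyclin needed for the bulk production of centrioles, stood at 76.6, 73.7 and 66.2 CPM in treated KO and at 89.8, 98.5 and 87.1 CPM in untreated KO. In WT it had 28, 6 and 14 reads in the treated libraries and 10, 10 and 30 in the untreated ones. Its log2 fold change was 8.66 ± 0.37 with estrogen and 8.90 ± 0.37 without it (edgeR adjusted p = 1.17e-08 and 8.77e-09). Leaving out treated WT replicate 1, 2 or 3 gave 9.26, 8.32 and 8.58 with estrogen. Leaving out untreated WT replicate 1, 2 or 3 gave 8.71, 8.56 and 9.65 without it.

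Deup1 encodes the scaffold of the deuterosome, the organelle on which most new centrioles of a multiciliated cell form. It stood at 39.5, 39.8 and 32.7 CPM in treated KO and at 47.6, 51.9 and 42.0 CPM in untreated KO, against 0 reads in every WT library. Deup1 was at least 3343-fold higher in KO with estrogen and at least 4146-fold higher without it (edgeR adjusted p = 2.45e-08 and 1.82e-08).

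Cdc20b, a relative of the mitotic activator Cdc20 that works at deuterosomes, stood at 15.1, 15.1 and 11.6 CPM in treated KO and at 18.8, 19.3 and 15.9 CPM in untreated KO, again with 0 reads in every WT library. It was at least 1248-fold higher in KO with estrogen and at least 1581-fold higher without it (edgeR adjusted p = 1.01e-07 and 7.64e-08). Its relative Cdc20 was also higher, but had 3065 reads in treated WT and 3234 in untreated WT, with log2 fold changes of 2.31 ± 0.18 and 2.30 ± 0.18.

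Ccno, Mcidas and Cdc20b are neighbours on chromosome 13, in that order in RefSeq, with the miRNA genes Mir449c, Mir449b and Mir449a inside Cdc20b. The 3 genes beyond Ccno did not share the difference. Dhx29, next to Ccno, averaged 24.0 ± 1.02 CPM in treated KO and 30.0 ± 3.76 CPM in treated WT, and 24.1 ± 1.73 CPM in KO without estrogen against 28.4 ± 1.28 CPM in untreated WT, and was called lower (log2 fold change -0.32 with estrogen and -0.24 without it; edgeR adjusted p = 0.0105 and 0.0410). Mtrex was not called (0.15 and 0.17; edgeR adjusted p = 0.0946 and 0.0706), and Plpp1 was called lower without estrogen only (-0.29 and -0.79; edgeR adjusted p = 0.377 and 0.0271). Gpx8 and Gzma, which overlap the span of Cdc20b and were added after their values were seen, gave mixed values. Gpx8 was not called, at log2 fold changes of -0.26 and 0.12, and Gzma was called higher at 0.261 ± 0.0656 CPM in treated KO against 0 reads in treated WT and 0.545 ± 0.245 CPM in KO without estrogen against 2 reads in untreated WT. Reads were counted without strand, so those over Gzma may include unspliced transcript of Cdc20b, which was not tested.

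The miR-449 and miR-34 miRNAs, which are abundant in multiciliated cells and share a seed, are shown because the precursors of miR-449 lie inside Cdc20b. Reads over the hairpin of Mir449a numbered 46 in treated KO and 46 in untreated KO, those of Mir449c 35 and 67, and those of Mir449b 12 and 23, against 0 in WT. Mir34c, from another locus, had 12 and 12 reads and Mir34b 5 and 2, again against 0 in WT. Only Mir449a and Mir449c had enough reads to be tested, and both were called higher under both treatments (larger edgeR adjusted p = 0.00287 and 0.00435). An mRNA library does not measure mature miRNAs, and reads over a hairpin cannot be told apart from those of the unspliced host transcript. The mature sequences that follow are RefSeq's (GRCm38.p6), with the shared seed, bases 2 to 8, in capitals.
miR-449a-5p: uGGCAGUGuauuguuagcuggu
miR-449c-5p: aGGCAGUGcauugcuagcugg
miR-34b-5p: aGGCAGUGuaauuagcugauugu

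Divided by exon length, as CPM per kb, the levels of the regulators in KO spanned a wide range. Length was that of the exons of GENCODE M21 transcripts (build GRCm38) matched to a RefSeq mRNA. Foxj1 led at 120 ± 22.9 CPM per kb in treated KO and 151 ± 32.9 CPM per kb in untreated KO, and Ccno followed at 38.5 ± 2.87 and 49.0 ± 3.18 CPM per kb. Deup1 came next at 12.4 ± 1.33 and 15.6 ± 1.64 CPM per kb, then Myb at 10.0 ± 1.08 and 12.7 ± 1.82. The libraries of Deup1 and Myb overlapped in untreated KO and not in treated KO. Cdc20b, Rfx2 and Mcidas overlapped each other and Myb in both groups, and their means lay between 8.08 and 8.61 CPM per kb in treated KO and between 10.2 and 11.1 CPM per kb in untreated KO. Gmnc (4.71 and 5.87 CPM per kb) and Rfx3 (4.30 and 4.77 CPM per kb) also overlapped each other, and Trp73 was lowest at 2.53 ± 0.367 and 2.61 ± 0.339 CPM per kb. In WT the order was another: Myb led at 3.66 ± 0.486 CPM per kb in treated and 2.35 ± 0.395 CPM per kb in untreated organoids, Rfx2 followed at 1.63 ± 0.194 and 1.69 ± 0.319, Rfx3 at 0.406 ± 0.0369 and 0.451 ± 0.0104, and the other regulators had means of 0.102 CPM per kb or below. Myb and Rfx2 overlapped in untreated WT and not in treated WT.

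Paralogs of the regulators were read for contrast. Of 16, 13 were tested, 8 were called higher and 2 lower in both treatments, with a median log2 fold change of 0.18 with estrogen and 0.38 without it. Trp63, the p53-family factor of basal cells, was higher at 104 ± 47.6 CPM in treated KO against 2.26 ± 1.07 CPM in treated WT and at 107 ± 30.7 CPM in KO without estrogen against 2.60 ± 0.345 CPM in untreated WT. Rfx5, which serves MHC class II genes, was modestly higher (log2 fold changes 0.66 and 0.72), Foxj2 was lower (-0.68 and -0.89) and Rfx1 was lower (-0.34 in both). Trp53 was not called (-0.13 and -0.09; edgeR adjusted p = 0.424 and 0.569), nor were Foxj3 and Cep63 in both treatments, and Rfx4, Rfx6 and Rfx8 had too few reads to be tested.

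Further along the program, genes of the centriole assembly machinery were higher in smaller steps than Deup1 and Ccno. Of 18, 14 were called higher and 1 lower in both treatments, with a median log2 fold change of 0.91 with estrogen and 1.01 without it. Ccdc78, linked to centriole formation in multiciliated cells, was higher by 7.48 ± 0.28 and 7.94 ± 0.29. Sass6, of the cartwheel, rose by 2.19 ± 0.14 and 2.16 ± 0.14, Plk4, the kinase that starts duplication, by 2.27 ± 0.17 and 2.16 ± 0.17, and Ccp110, which caps centrioles, by 2.36 ± 0.19 and 2.47 ± 0.19. Cep192, a centrosome scaffold, was lower (-0.76 ± 0.11 and -1.01 ± 0.11).

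Of 13 genes for the docking of basal bodies, 9 were called higher and 1 lower in both treatments, with a median log2 fold change of 1.40 with estrogen and 1.69 without it. Dzip1l, of the ciliary transition zone, averaged 32.8 ± 6.60 CPM in treated KO against 0.129 ± 0.0900 CPM in treated WT, and 41.3 ± 7.83 CPM in KO without estrogen against 0.147 ± 0.0844 CPM in untreated WT. Poc1a (2.65 and 3.03), the centrin gene Cetn4 (3.79 and 4.14) and Cby1 (1.83 and 2.20) were higher on the log2 scale, and Cep164, of the distal appendages, was lower by a small amount (-0.24 and -0.31).

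The motile cilium genes, which Foxj1 and RFX factors are known to control, were called higher in 30 of 31 cases, with a median log2 fold change of 9.47 with estrogen and 9.98 without it. Dnah5, a heavy chain of outer dynein arms, averaged 165 ± 54.7 CPM in treated KO against 0.0368 ± 0.0111 CPM in treated WT, and 181 ± 46.0 CPM in KO without estrogen against 0.0502 ± 0.0121 CPM in untreated WT. Tekt1, of the axoneme, followed the same course at 40.4 ± 7.94 CPM in treated KO against 0.0524 ± 0.0137 CPM in treated WT and 48.4 ± 12.4 CPM in KO without estrogen against 0.0303 ± 0.0242 CPM in untreated WT. Spag17 was not called in both treatments (log2 fold change 1.01 with estrogen and 0.63 without it; edgeR adjusted p = 0.0246 and 0.130). The summed CPM of the 31 genes ran from 1156 to 2007 in treated KO against 17.3 to 29.0 in treated WT, and from 1357 to 2395 in untreated KO against 24.7 to 38.7 in untreated WT.

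Notch signalling is known to hold cells back from the multiciliated fate. Of 12 Notch genes 11 were tested, 8 were called higher and 1 lower in both treatments, with a median log2 fold change of 1.97 with estrogen and 2.01 without it. Dll1, a ligand, averaged 17.8 ± 8.04 CPM in treated KO against 0.0818 ± 0.0468 CPM in treated WT, and 16.7 ± 4.02 CPM in KO without estrogen against 0.111 ± 0.0609 CPM in untreated WT. Notch1, a receptor, averaged 128 ± 29.9 CPM in treated KO against 11.4 ± 2.99 CPM in treated WT, and 112 ± 18.6 CPM in KO without estrogen against 9.65 ± 2.66 CPM in untreated WT. The ligand Jag2 (4.90 and 4.73) and the target Heyl (4.41 and 3.89) were higher on the log2 scale, and the ligand Jag1 was lower (-1.06 and -1.02). Another target, Hes1, was not called in both treatments (0.15 with estrogen and 0.30 without it, edgeR adjusted p = 0.247 and 0.0363). The ligand Dll4 was not called in both either, and the target Hes5 had too few reads to be tested.

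Markers of basal epithelium differed with genotype as well: 5 of 6 were called higher in KO and Itga6 was called lower. Their summed CPM ran from 4473 to 10595 in treated KO against 1103 to 1469 in treated WT, and from 5678 to 10440 in untreated KO against 1398 to 1449 in untreated WT. Nearly all of the WT sum was Itga6 (1262 ± 186 CPM treated and 1427 ± 26.7 CPM untreated), so it does not show the level of the other markers in WT. Krt5, a keratin of basal cells, averaged 4825 ± 1987 CPM in treated KO against 0.141 ± 0.0720 CPM in treated WT, and 5005 ± 1671 CPM in KO without estrogen against 0.0631 ± 0.0516 CPM in untreated WT. The part of this in the levels of the regulators was not tested.

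**Figure D3:**
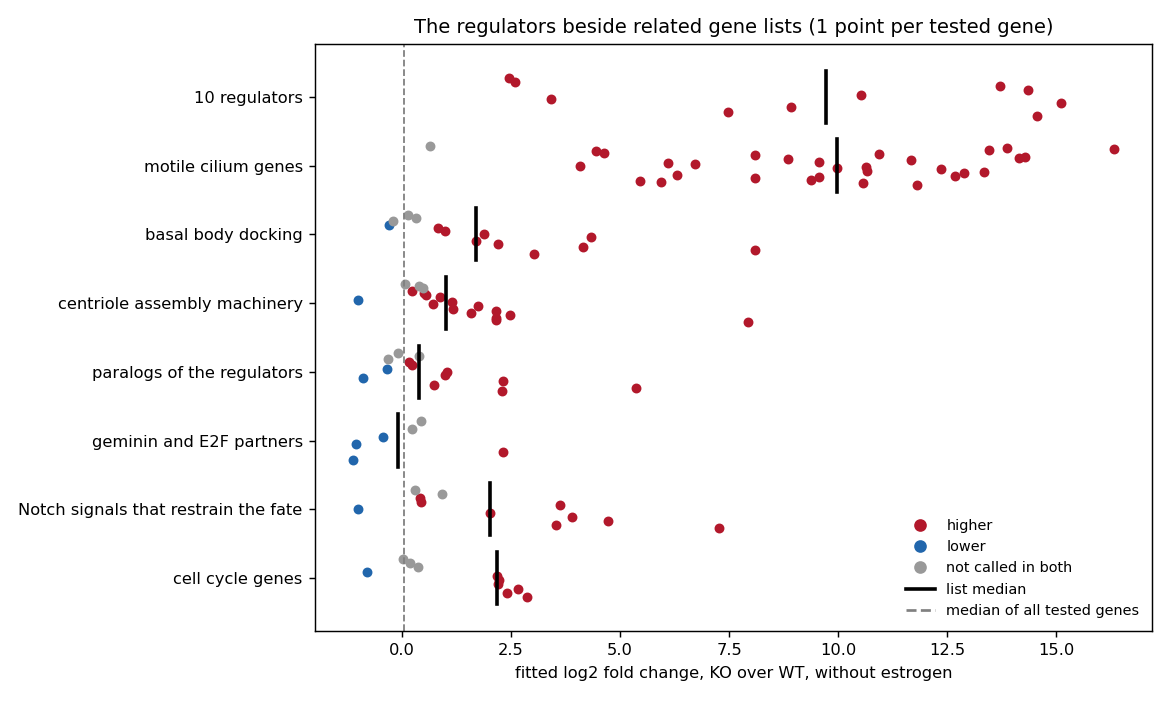
Fitted log2 fold change, KO over WT without estrogen, of each tested gene of the regulators and of related lists, coloured by the call over both treatments, with list medians as bars and the median of all tested genes as a dashed line. The regulators (median 9.71) and motile cilium genes (9.98) lie to the right of centriole assembly genes (1.01), basal body genes (1.69), paralogs (0.38) and geminin and E2F partners (-0.10); points of genes without WT reads depend on the prior count.

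Within KO, the regulators differed from library to library in a way that did not put all 10 in the same order. Among the untreated KO libraries, replicate 2 was highest for 9 of the 10 and replicate 3 was lowest for 7. Among the treated KO libraries, replicate 2 was highest for 5, replicate 1 for 4, and replicate 3 again lowest for 7. The motile cilium sum was 1156, 2007 and 1450 CPM in treated KO replicates 1, 2 and 3, and 1357, 2395 and 1752 CPM in the untreated ones, so that replicate 2 was highest in both groups. The basal marker sum had the opposite order, at 10595, 4473 and 7533 CPM in treated KO and 10440, 5678 and 7567 CPM in untreated KO.

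Foxj1 and Rfx3 had the replicate order of the motile cilium sum in both KO groups, Rfx2 had it in untreated KO, and Mcidas had it in neither. The ratio of Foxj1 to Rfx3 CPM was 8.04, 7.82 and 7.84 in treated KO replicates 1, 2 and 3, and 9.05, 9.12 and 8.59 in the untreated ones, which is close to constant within a group. The ratio of Foxj1 to Mcidas was 12.1, 20.2 and 18.3 in treated KO and 12.6, 19.5 and 17.5 in untreated KO, lowest in replicate 1 of both groups. Foxj1 over Ccno gave the same order, at 3.65, 5.22 and 4.27 in treated KO and 3.75, 5.03 and 4.12 in untreated KO. Foxj1 over Deup1 did so too, at 7.07, 9.68 and 8.64 in treated KO and 7.08, 9.56 and 8.54 in untreated KO. So did Foxj1 over Rfx2, at 10.19, 12.01 and 11.11 in treated KO and 11.05, 12.25 and 11.42 in untreated KO. Replicate 1 thus held more Mcidas, Ccno, Deup1 and Rfx2 for its Foxj1. It had the lowest motile sum and the highest basal and cell cycle sums (cell cycle sum 735 CPM treated and 785 CPM untreated). Foxj1 over Gmnc did not give that order in both groups: it was 13.5, 16.8 and 12.2 in treated KO, lowest in replicate 3, and 12.8, 15.3 and 14.5 in untreated KO, lowest in replicate 1. With 3 libraries a group these are descriptions, with no test.

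**Figure D4:**
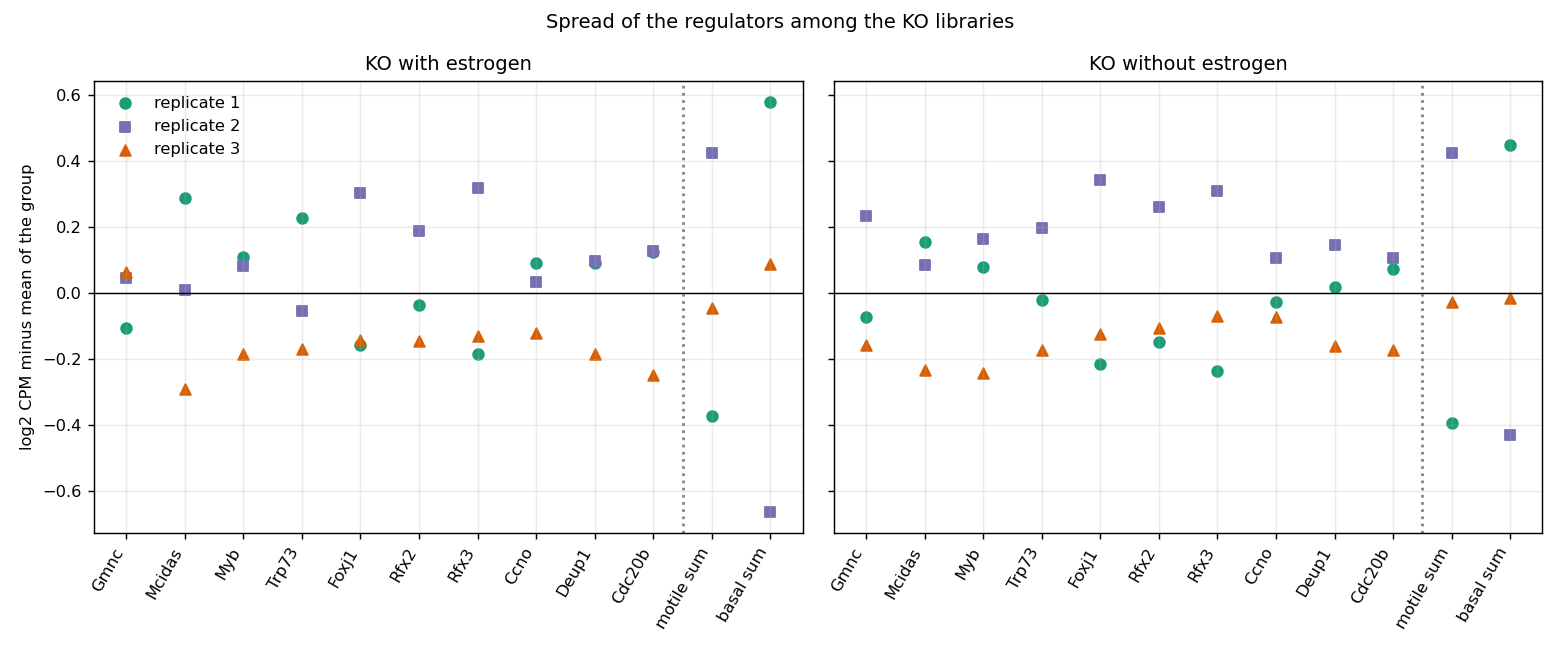
Deviation of each KO library from its group's mean log2 CPM, for the 10 regulators and for the summed motile cilium and basal marker genes (right of the dotted line), in treated (left) and untreated (right) KO. Replicate 2 (squares) is above the mean for Foxj1, Rfx2, Rfx3 and the motile sum in both panels and below it for the basal sum; Foxj1 deviates by 0.30 in treated KO and 0.34 in untreated KO there.

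The gene whose course over the 12 libraries lay nearest to that of Foxj1 was Ces1f, a carboxylesterase gene, with a root mean square difference of 0.76 in log2 CPM after centring each gene on its mean. Cfap65 (0.85), a cilium protein gene, Lrrc23 (0.86), of the radial spokes, the ligand gene Wnt11 (0.86) and Ccdc153 (0.86), a motile cilium gene, came next. Ces1f averaged 104 ± 19.7 CPM in treated KO against 0.0759 ± 0.0399 CPM in treated WT, and 97.0 ± 24.2 CPM in KO without estrogen against 0.00772 ± 0.0134 CPM in untreated WT. By this measure Deup1 stood at rank 31 of all tested genes, Gmnc at 77, Cdc20b at 122, Mcidas at 145, Ccno at 194 and Trp73 at 388, while Rfx3, Rfx2 and Myb, which have a level of their own in WT, stood at 1695, 2452 and 2953. The measure is set mostly by the size of the genotype difference.

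No regulator was called for estrogen in KO by the adjusted test. All 10 had a log2 fold change below 0, treated over untreated, with a median of -0.33, in a comparison in which 50.01% of all tested genes were below 0. The values ran from -0.37 ± 0.16 for Cdc20b to -0.04 ± 0.21 for Trp73, and the regulators are not independent of each other. In edgeR's test the unadjusted p was 0.0262 for Deup1 (-0.34 ± 0.12), 0.0394 for Myb (-0.35 ± 0.15) and 0.0473 for Gmnc (-0.32 ± 0.13), with an adjusted p of 1. These 3 were the regulators under 0.05, where 0.99% of all tested genes reached that with a lower value under estrogen. No gene passed adjustment in edgeR (0%; 411 of 16465 had an unadjusted p under 0.05), and the adjusted p of the regulators was 1 for each. With the replicate number as a block within genotype, 6 of the 10 had an unadjusted p under 0.05, the lowest 0.00694 for Deup1, and edgeR's adjusted p stayed at 1. All 6 were lower with estrogen, as were 2.14% of all tested genes at that threshold in the blocked fit.

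In the libraries themselves, Ccno, Deup1, Cdc20b, Gmnc and Myb had their lower values with estrogen, though none was called. Ccno, at 66.2 to 76.6 CPM in treated KO and 87.1 to 98.5 CPM in untreated KO, did not overlap between the treatments, and neither did Deup1, Cdc20b or Gmnc. Of all tested genes, 3.47% had the 3 treated KO libraries below the 3 untreated ones. Myb overlapped by a narrow margin, since the highest treated library (40.5 CPM) exceeded the lowest untreated one (40.3 CPM). Foxj1, at 279 to 385 CPM in treated KO and 337 to 496 CPM in untreated KO, overlapped, as did Mcidas, Trp73, Rfx2 and Rfx3. Taken by same-numbered libraries, 9 of the 10 regulators were lower with estrogen in all 3 pairs, beside 19.6% of all tested genes. Trp73 was the exception, at 15.7 CPM in treated and 13.6 CPM in untreated replicate 1. The motile cilium genes had the same sign in 31 of 31 cases, with a median of -0.27, and 2 of them an unadjusted p under 0.05.

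In WT, no regulator passed the adjusted test either (edgeR called 0% of genes; 883 had an unadjusted p under 0.05). Myb and Foxj1 had all 3 treated libraries above all 3 untreated ones, beside 5% of all tested genes. For Myb these were 12.2 to 15.8 CPM in treated WT and 7.50 to 10.4 CPM in untreated WT. Its log2 fold change was 0.64 ± 0.15, for which edgeR's unadjusted p was 0.00149 and its adjusted p 0.587. Foxj1 had 38 reads in treated WT and 4 in untreated WT, a log2 fold change of 3.12 ± 0.74 (edgeR unadjusted p of 0.00152, adjusted p of 0.587), and a ratio of summed levels of 9.33 (exact 95% counting interval 3.36 to 35.98). The treated WT libraries held Foxj1 at 0.0676 to 0.194 CPM and the untreated ones at 0 to 0.0232 CPM, against 279 CPM in the lowest KO library. These 2 were the only regulators with an unadjusted p under 0.05 among the 7 with WT reads, and 3.62% of all tested genes reached it with a higher value under estrogen.

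All 19 nonzero regulator values of at most 50 reads were even numbers, against 72.7% of all gene values from 1 to 50, and per the file headers each mate of a pair was counted singly. Fragments are therefore fewer than reads, and the counting intervals are too narrow. DESeq2 called the Foxj1 difference in WT (log2 fold change 3.22, adjusted p = 0.0230), and edgeR did not. Of the motile cilium genes in WT, 20 of 31 had a higher fitted value with estrogen, the median log2 fold change was 0.25 and none had an unadjusted p under 0.05. Of all tested genes, 46.9% had a value below 0, and 3 of the 31 had 0 reads throughout WT and thus no direction. The summed CPM of the 31 genes was 17.3 to 29.0 in treated WT against 24.7 to 38.7 in untreated WT, of which Spag17 made up 13.8 ± 5.86 CPM in treated WT and 22.6 ± 6.93 CPM in untreated WT. Without Spag17, left out after its values were seen, the sum was 10.2 to 11.1 CPM in treated WT against 10.1 to 12.1 CPM in untreated WT. Of the other regulators in WT, Trp73 (-0.54 ± 0.45), Rfx3 (-0.15 ± 0.16), Ccno (-0.10 ± 0.49) and Rfx2 (-0.05 ± 0.16) had log2 fold changes within about their SE or a little over it.

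**Figure D5:**
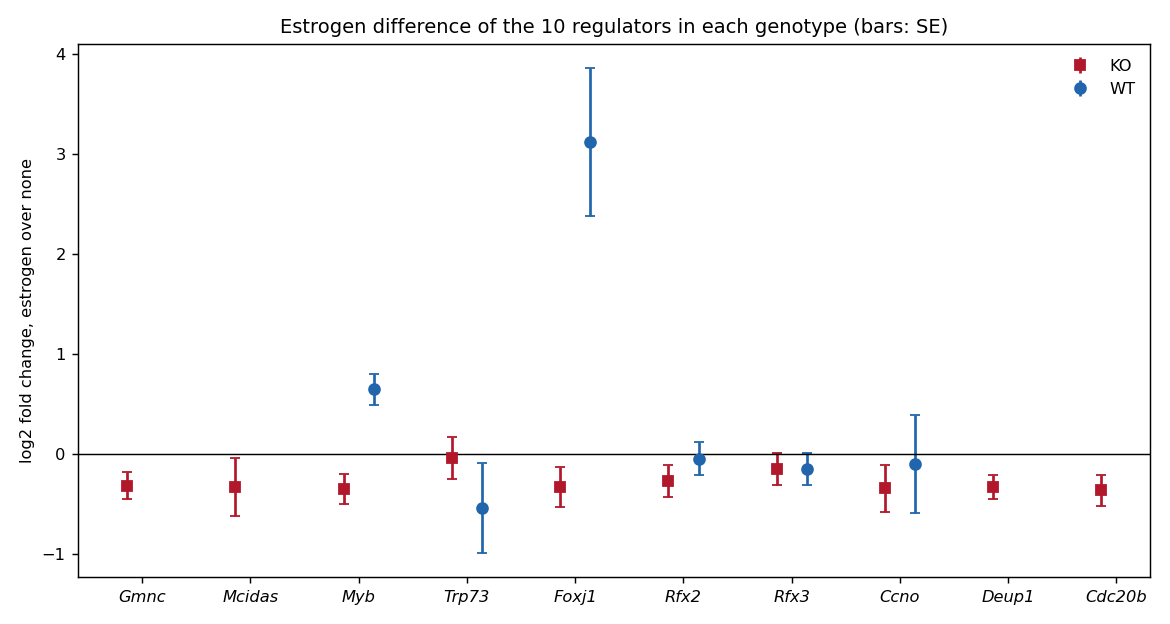
Log2 fold change, estrogen over none, of each regulator in KO (squares) and, for 6 of them, in WT (circles), with SE bars. The KO values lie between -0.37 and -0.04, and Myb (0.64) and Foxj1 (3.12) stand above 0 in WT; none passed edgeR's adjusted test.

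For Myb and Foxj1, the estrogen differences of the genotypes had opposite signs. Tested directly as an interaction, the difference between them (KO minus WT) was -0.99 ± 0.21 for Myb and -3.45 ± 0.76 for Foxj1. The unadjusted p in edgeR was 0.000725 for Myb and 0.000937 for Foxj1, and the adjusted p was 0.871 for each. For the interaction edgeR called 0% of genes, and 4.41% had an unadjusted p under 0.05. DESeq2 called both, with log2 values of -0.99 for Myb (adjusted p = 0.0356) and -3.55 for Foxj1 (adjusted p = 0.0234). For Foxj1 the WT side rests on 38 treated and 4 untreated reads, and its difference in KO was -0.33 ± 0.20 (edgeR unadjusted p = 0.131). The effect of genotype on Myb thus measured 2.73-fold with estrogen and 5.44-fold without it, a difference that did not pass edgeR's adjustment.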

How the data were processed

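Each of the 12 deposited files gives a library's raw count for every gene. The authors obtained it, per the file headers, with featureCounts 2.0.0 over RefSeq exons by gene symbol, each mate singly, without strand, and without reads that mapped to several places or to several genes; the submitters' processing notes name GRCm39, STAR 2.7.10b, featureCounts 2.0.3, Trim Galore 0.6.6 and FastQC 0.11.7. No exon base of the regulators was shared with another gene's exons among GENCODE M21 transcripts matched to a RefSeq mRNA. Exons of other transcripts were not checked. In RefSeq the spans of Trp73, Rfx2, Rfx3 and Deup1 overlap those of genes such as Gm26036, Gm41604, Gm17894 and Gm39295.

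The counts were analysed in R 4.3.3. filterByExpr of edgeR 4.0.16 chose the genes to test (minimum count 10, minimum total 15). Counts were scaled by TMM and fitted with a robust quasi-likelihood model in which the 12 libraries formed 4 groups sharing an estimate of the spread. Tests were two-sided, p-values were adjusted by Benjamini-Hochberg over all 16465 tested genes, and the threshold was 0.05. A gene was called by genotype in both treatments when it passed in each with the same sign. SE was computed from fold change and F. It is approximate at large fold changes and can be too small where a group has few reads. A group with 0 reads was given a floor of 3 reads. Likeness to Foxj1 used log2 CPM with a prior count of 2. The method was tested on simulated data. In these, few genes changed, in equal numbers up and down, so they do not test scaling under genotype differences as widespread as here.

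All 10 regulators are named. Of other lists, up to 4 genes called in the main direction with the smallest adjusted p, and up to 2 in the other, are named. The values of 1 immune marker are not reported here. The regulators and lists were chosen with earlier results of these data known. DESeq2 1.42.0, other scalings and filters, the 6 libraries compared, replicate blocks and leaving out each library were alternatives. Same-numbered KO libraries deviated together (correlations over genes of 0.57, 0.50 and 0.41), which by the rule used pairs them. Same-numbered WT libraries did not (-0.16, -0.16 and -0.39). Some differently numbered WT libraries did: treated 1 with untreated 3 (0.40), treated 2 with untreated 1 (0.27) and treated 3 with untreated 2 (0.46). Libraries of a group differed by far more than counting error (chi-square per degree of freedom 48.8 to 321).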

Additional observations from a re-analysis of the deposited data

How the results depend on the processing

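For KO against WT, 190 of 190 regulator values with estrogen and 190 of 190 without it, over 19 alternative settings, kept their direction and their call; the highest adjusted p was 9.38e-05 and 1.23e-05. Library size alone in place of TMM moved the median log2 fold change of all genes by 0.19 with estrogen and 0.23 without it. For estrogen in KO, without 1 library at a time, the log2 fold change of Trp73 ran from -0.16 to 0.063 (positive without untreated replicate 2, and at 0.04 without treated replicate 3) and that of Rfx3 from -0.33 to 0.019 (positive without untreated replicate 2). In WT, Rfx2 ran from -0.14 to 0.12 (positive without untreated replicate 3, and at 0.03 without treated replicate 1) and Ccno from -0.70 to 0.65 (positive without untreated replicate 3, and at 0.24 without treated replicate 2). DESeq2 called 20 genes for estrogen in KO, 63 in WT (1 of them a regulator, higher: Foxj1) and 25 for the interaction (2 of them regulators, lower), where edgeR called 0. Leaving out 1 library at a time, edgeR called 0 to 4 genes for estrogen in KO (4 without untreated replicate 3), 0 to 54 in WT (54 without treated replicate 1, 1 without untreated replicate 3) and 0 to 6 for the interaction (6 without treated WT replicate 1), and no regulator. With the replicate number as a block within genotype, edgeR called 0 genes for estrogen in KO, 7 in WT and 4 for the interaction; with an additive replicate block it called 0 in each and 10 of 10 regulators for genotype. The block changed no other call, and in WT it follows numbers whose libraries did not deviate together. The adjusted p of Foxj1 for estrogen in WT ran from 0.0230 to 1 over the alternatives, and that of Myb from 0.0550 to 1. Counts of the other lists moved by over 1.5 times in single settings: lower basal body genes to 0 with library size alone and to between 0 and 2 without single libraries, higher uterine markers to 3 and 2, lower paralogs to 1, and higher miRNA rows to 0 with a minimum of 1 CPM. Leaving out WT replicate 3 left Mcidas with 0 WT reads, so that no fold could be given. At 2 to 38 reads per group, Mcidas, Trp73 and Foxj1 in WT are limited by depth.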
